A study of Mus musculus with 20 samples.

Results

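Open chromatin was compared between cardiomyocyte cultures that were knockout (KO) or wild type (WT) for Mettl3, the gene of the catalytic subunit of the nuclear RNA m6A methyltransferase. The comparison rests on 6 ATAC-seq peak lists, 3 from KO and 3 from WT cardiomyocyte cultures (CM KO and CM WT). Overlapping intervals of all 12 ATAC-seq lists of the study, which also hold 3 KO and 3 WT lists of embryonic stem cells (ESCs), were merged into 193427 union regions, and 127911 of these were called in at least 1 cardiomyocyte library. A region was termed opened when it was called in 3 of 3 CM KO libraries and 0 of 3 CM WT libraries, and closed in the reverse case. By this rule 1458 regions were opened (1.14% of the 127911) and 7225 were closed (5.65%), while 44642 were called in all 6 cardiomyocyte libraries.

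All cells were mouse, of strain C57BL/6. The cultures were made from the WT or Mettl3-KO ESCs through embryoid bodies in serum medium with ascorbic acid, and were replated on gelatin in cardiomyocyte medium. The labels give no sort for cardiomyocytes, no day of harvest, no number of KO clones and no separate cultures behind the libraries of a group, so the p-values below reflect the scatter among the libraries at hand, possibly a technical one. The label of CM KO replicate 3 names RNA as its molecule. Its file is a peak list like the rest, and its values lay within or next to the range of the other CM KO libraries, so it was kept. The Mettl3 promoter was called in all 12 libraries, and Mettl3 stood at 1.07 RPKM in chromatin-associated RNA of CM KO against 1.18 in CM WT. Which exons were deleted is not known here, so neither value checks the genotype labels.

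METTL3 methylates adenosines in nascent and mature RNA, and m6A on RNA bound to chromatin has been tied to the state of that chromatin. ATAC-seq marks DNA that a transposase can reach. In most cell types promoters of broadly used, CpG-rich genes are open, whereas enhancers, which lie mainly in introns and between genes, are open in a lineage-specific way. Differentiation of ESCs therefore opens many distal elements, and factors such as GATA4, HAND2, MEF2C, TEAD proteins and serum response factor occupy those of heart and mesoderm.

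Promoter windows touched by opened and closed regions are printed first, because the results on named heart, stromal, macrophage and neuronal genes turn on them. They are not typical of either set, since 4.60% of opened and 3.70% of closed regions touched a promoter. Each is the 250 bases upstream of a transcription start in RefSeq on GRCm38.p6, the assembly named mm10, written 5′ to 3′ on the strand of the gene. Capitals mark matches on either strand to a GATA motif (AGATAA), a TEAD motif (GGAATG), an AP-1 motif (TGANTCA) or the CArG box of serum response factor. The closed examples are Tnnt2 (cardiac troponin T), Actc1 (cardiac actin), Hand2 (a heart transcription factor), Col3a1 (a fibroblast collagen) and C1qb (a complement subunit made by macrophages).
Tnnt2 (chr1:135836084-135836333, plus strand): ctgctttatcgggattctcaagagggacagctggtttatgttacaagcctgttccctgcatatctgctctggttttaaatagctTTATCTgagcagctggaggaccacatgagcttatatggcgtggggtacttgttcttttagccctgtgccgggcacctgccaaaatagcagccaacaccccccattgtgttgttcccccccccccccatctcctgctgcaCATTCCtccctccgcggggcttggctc
Actc1 (chr2:114052876-114053125, minus strand): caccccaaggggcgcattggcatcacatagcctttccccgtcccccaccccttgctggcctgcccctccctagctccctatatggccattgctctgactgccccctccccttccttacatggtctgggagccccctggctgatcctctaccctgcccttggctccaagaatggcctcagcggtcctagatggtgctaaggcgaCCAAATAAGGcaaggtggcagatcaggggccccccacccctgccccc
Hand2 (chr8:57320733-57320982, plus strand): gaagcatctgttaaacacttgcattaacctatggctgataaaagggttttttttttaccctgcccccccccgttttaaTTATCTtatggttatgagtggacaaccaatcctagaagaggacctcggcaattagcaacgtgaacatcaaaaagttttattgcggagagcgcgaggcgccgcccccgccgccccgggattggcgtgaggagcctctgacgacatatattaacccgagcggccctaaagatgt
Col3a1 (chr1:45311288-45311537, plus strand): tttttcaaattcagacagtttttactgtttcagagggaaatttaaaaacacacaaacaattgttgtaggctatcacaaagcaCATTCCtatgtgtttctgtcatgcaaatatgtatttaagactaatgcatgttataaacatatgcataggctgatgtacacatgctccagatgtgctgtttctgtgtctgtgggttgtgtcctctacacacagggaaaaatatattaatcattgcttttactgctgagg
C1qb (chr4:136886201-136886450, minus strand): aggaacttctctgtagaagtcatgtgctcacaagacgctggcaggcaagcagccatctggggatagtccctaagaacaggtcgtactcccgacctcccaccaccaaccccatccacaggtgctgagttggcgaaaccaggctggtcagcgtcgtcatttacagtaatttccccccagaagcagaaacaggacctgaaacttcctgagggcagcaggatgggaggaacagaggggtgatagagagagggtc
The opened examples are Elavl3 (a neuronal RNA-binding protein) and Xlr3a (an X-linked gene related to synaptonemal complex proteins).
Elavl3 (chr9:22052024-22052273, minus strand): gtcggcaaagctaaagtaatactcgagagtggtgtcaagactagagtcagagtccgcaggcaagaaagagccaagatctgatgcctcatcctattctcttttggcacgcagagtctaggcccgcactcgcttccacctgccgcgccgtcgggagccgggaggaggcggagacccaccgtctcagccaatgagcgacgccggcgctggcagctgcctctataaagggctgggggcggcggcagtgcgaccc
Xlr3a (chrX:73097096-73097345, minus strand): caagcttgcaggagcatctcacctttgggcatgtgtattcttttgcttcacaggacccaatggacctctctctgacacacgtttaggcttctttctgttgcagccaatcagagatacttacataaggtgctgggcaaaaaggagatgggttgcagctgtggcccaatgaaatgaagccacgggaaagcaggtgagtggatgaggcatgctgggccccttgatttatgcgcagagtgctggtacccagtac

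The stretch of each printed promoter that lay inside the region was 250 bases for Tnnt2, 238 for Actc1, 125 for Hand2, 85 for Col3a1, 250 for C1qb, 168 for Elavl3 and 250 for Xlr3a. The marked GATA match of Hand2 and the marked TEAD match of Col3a1 lay upstream of that stretch, outside the closed region. Windows touched by closed regions were poor in CpG. Their median was 5 CpG in 250 bases over 207 promoter entries, against 6 over 51 opened entries, 10 over all 21262 entries of protein-coding genes and 16 over 13387 entries called in all 6 cardiomyocyte libraries. A window counted here need only lie within 1 kb of a region: 98 of the 207 closed and 20 of the 51 opened entries had none of their 250 upstream bases inside it. A GATA match stood in 11.6% of closed, 3.92% of opened and 8.81% of all promoters. An AP-1 match stood in 10.6%, 5.88% and 6.13%, and a TEAD match in 16.9%, 15.7% and 11.7%. A KLF match (GGGCGTGG), a GC-rich motif, went the other way, with 0.966% of closed, 3.92% of opened and 6.33% of all promoters. The CArG box stood in 2.90% of closed, 3.92% of opened and 1.39% of all promoters. The opened set held only 2 promoters with a GATA match, 2 with a KLF match and 2 with a CArG box. In the 89 closed entries with at least 125 bases inside the region, a choice made after seeing the data, a GATA match stood in 19.1%, an AP-1 match in 17.98%, a TEAD match in 20.2% and a CArG box in 6.74%, and no entry held a KLF match. Of 24 such opened entries, 4.17% held a GATA match, 12.5% an AP-1 match and 16.7% a TEAD match, and none a KLF match or CArG box. Matches were counted over the whole 250 bases in each of these groups, so a match may lie outside the region, as in Hand2. Alternative starts of a gene count as separate entries, and the 207 closed entries belong to 184 genes. Ldb3 thus entered more than once with a CArG box, and Ccrl2 with a GATA and a TEAD match. No share over all promoters was taken under the 125-base rule. These shares describe the letters in the windows, and CpG content and motif content move together.

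CM KO cultures had fewer called intervals than CM WT cultures, and most of the shortfall lay away from promoters. The CM KO libraries had 70132, 76381 and 73017 intervals and the CM WT libraries 86313, 94617 and 85443. Every CM KO library was below every CM WT library (73177 ± 3128 against 88791 ± 5064, SD, n = 3 each; two-sided exact permutation p = 0.1, the smallest that 3 against 3 can give). Intervals at a promoter (within 1 kb of a start, or of either gene end where the strand is not known) numbered 16584, 16889 and 16761 in CM KO and 17276, 17568 and 17252 in CM WT, a ratio of means of 0.964. Intervals elsewhere numbered 53548, 59492 and 56256 against 69037, 77049 and 68191, a ratio of 0.790. Neither pair of groups overlapped (exact permutation p = 0.1 for each). Promoters thus made up 22.9% ± 0.769 of intervals in CM KO and 19.6% ± 0.891 in CM WT (SD, n = 3), again without overlap (exact permutation p = 0.1). With 70132 intervals taken from each library the shares were 23.5% and 22.5%, a difference of 0.95 percentage points in place of 3.31 (no overlap, exact permutation p = 0.1). The median interval width was 289 ± 2.65 bp against 288 ± 2.89 bp with overlapping groups (exact permutation p = 1.0), but with equal interval numbers it was 296 bp in CM KO and 330.3 bp in CM WT (no overlap, exact permutation p = 0.1).

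Depth moved with genotype. The background pileup, solved from the deposited fold and p-value of each summit as a measure of relative depth, was 1.58, 1.58 and 1.72 reads per base in CM KO and 2.09, 2.53 and 2.09 in CM WT. With all libraries rescaled to the lowest pileup, CM KO still had fewer intervals (72674 ± 3218 against 84474 ± 2718, SD, n = 3, no overlap, exact permutation p = 0.1). The part of total reads and of the share of reads in peaks in this difference was not tested. In ESCs the KO-to-WT difference in log2 interval number was 0.03, against -0.28 in cardiomyocyte cultures. The difference between these effects was -0.31 (genotype labels permuted within each cell type, 400 arrangements, exact p = 0.03), and for the promoter share it was 3.53 percentage points (exact p = 0.03). After Benjamini-Hochberg adjustment over 4 measures both stood at 0.055 and did not pass 0.05. With libraries rescaled the differences were -0.23 and 2.98 percentage points (same permutation, exact p = 0.05 for each, 0.093 after adjustment). With equal interval numbers the promoter share difference was 0.93 points (same permutation, exact p = 0.065, 0.227 after adjustment).

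**Figure D1:**
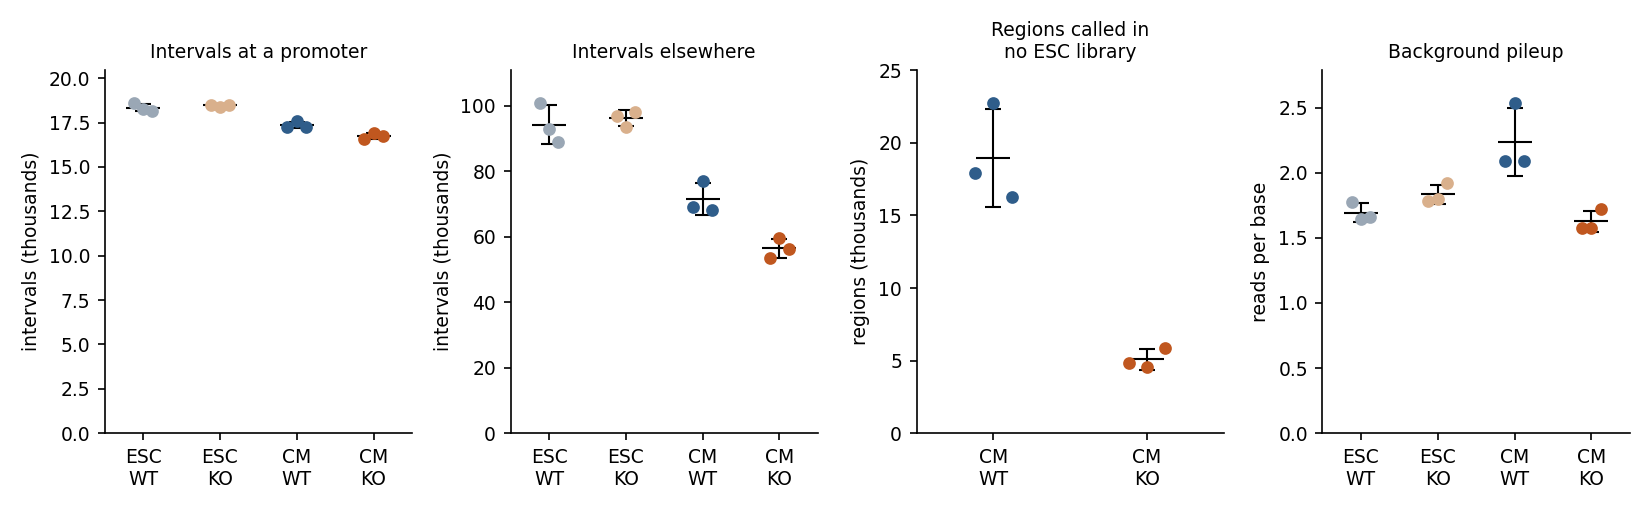
Called intervals at promoters, intervals elsewhere and regions called in no ESC library (axes in units of 1000), and background pileup (reads per base), for each library (points) with group mean and SD (n = 3). CM KO lies below CM WT in all 4 panels; the gap is 0.964 as a ratio of means at promoters, 0.790 elsewhere and 0.268 for regions called in no ESC library.

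The shortfall of CM KO was largest in proportion among regions that ESCs lack too. Of the union regions, 35094 were called in none of the 6 ESC libraries, a choice made without the cardiomyocyte lists other than that at least 1 of them called the region. CM KO libraries called 4811, 4554 and 5887 of these and CM WT libraries 17894, 22730 and 16239. All CM KO values were far below all CM WT values (5084 ± 707 against 18954 ± 3373, SD, n = 3, a ratio of 0.268; exact permutation p = 0.1). The ratio was 0.289 with libraries rescaled to one pileup and 0.543 with 70132 intervals taken from each library. Both runs treated the ESC lists in the same way, so the regions called in no ESC library were a new set in each. With 70132 intervals per library, CM KO libraries called a mean of 9565 such regions and CM WT libraries 17626. Regions that at least 1 ESC library called differed by less than the spread between libraries, with 61700, 67871 and 63140 in CM KO and 64345, 68107 and 65054 in CM WT (ratio 0.976, groups overlapping, exact permutation p = 0.5). Of the 86542 regions called in 3 of 3 ESC WT libraries, CM KO libraries called 63.1%, 68.2% and 63.9% and CM WT libraries 63.4%, 65.9% and 64.2% (difference of means 0.57 percentage points, groups overlapping, exact permutation p = 0.9). With 70132 intervals taken from each library, ESC libraries included, the ESC WT set was drawn anew from the cut lists and was not these 86542 regions. Of that other set CM KO libraries called 80.0% and CM WT libraries 73.1%. The difference was 6.95 points, without overlap (exact permutation p = 0.1).

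**Figure D2:**
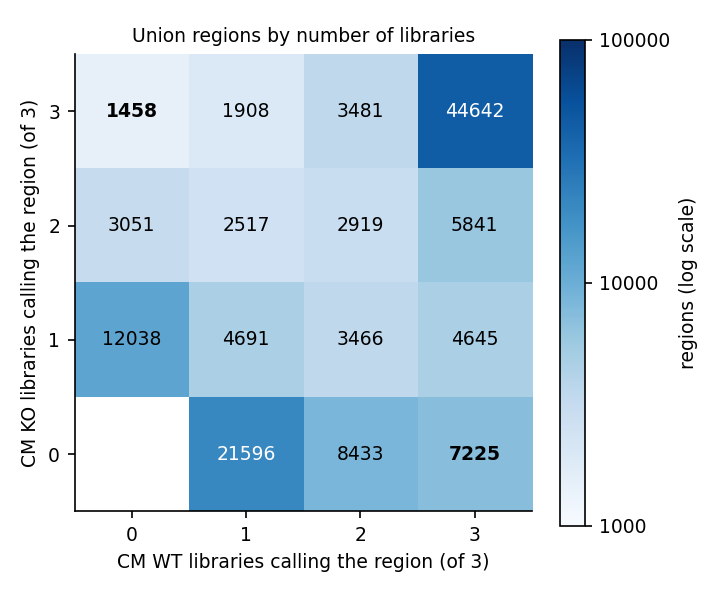
Number of union regions by how many CM WT libraries (horizontal axis) and CM KO libraries (vertical axis) called them, on a log color scale. The 1458 opened regions stand top left and the 7225 closed regions bottom right, in bold.

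Next to the rule's threshold, 3051 regions were called in 2 CM KO and 0 CM WT libraries and 1908 in 3 CM KO and 1 CM WT library. On the closed side, 8433 were called in 0 CM KO and 2 CM WT libraries and 4645 in 1 CM KO and 3 CM WT libraries. How far the sets carry to a library that did not choose them was scored by choosing regions from 2 KO and 2 WT libraries, in each of the 9 ways. Regions closed in the 4 libraries were called in 66.2% to 84.6% of cases in the left-out CM WT library and in 14.1% to 18.96% in the left-out CM KO library. Regions opened in the 4 were called in 54.5% to 73.3% in the left-out CM KO library and in 21.8% to 32.1% in the left-out CM WT library. Closed regions outnumbered opened ones under each alternative run, by 4.96 to 1 as defined, by 3.89 to 1 with libraries rescaled, and by 1.54 to 1 with equal interval numbers (2637 opened, 4049 closed). Opened regions numbered 2796 without CM KO replicate 1, 2559 without CM KO replicate 3 and 2210 without CM WT replicate 2, and closed regions 11224 without CM WT replicate 3, since a rule over fewer libraries is easier to meet.

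Most opened regions were also called in ESCs, and most closed regions were not. Each ESC library called between 82.6% and 87.9% of opened regions, between 16.8% and 19.3% of closed regions and between 60.4% and 64.1% of the 127911 regions called in at least 1 cardiomyocyte library. Opened regions stayed below the regions called in all 6 cardiomyocyte libraries, of which each ESC library called 93.8% to 95.3%. Of opened regions, 986 (67.6%) were called in all 6 ESC libraries and 35 (2.40%) in none. Of closed regions, 732 (10.1%) were called in all 6 and 5214 (72.2%) in none. Over the 127911 regions these shares were 51.8% and 27.4%. Few of these regions were genotype-specific in ESCs, and these went both ways: 40 opened regions (2.74%) were called in 3 of 3 ESC KO and 0 of 3 ESC WT libraries and 40 in the reverse. Of closed regions, 41 (0.567%) were called in 3 of 3 ESC WT and 0 of 3 ESC KO libraries and 37 (0.512%) in the reverse. Over the 127911 regions, 0.915% were KO-only and 0.593% WT-only in ESCs. In the ESC libraries themselves, 1.52% of called regions were KO-only and 1.68% WT-only by the same rule. Xlr3a and the X-linked ubiquitin protease gene Usp26 were among the 40 opened regions that were also KO-only in ESCs, since their promoters were called in 3 ESC KO and 0 ESC WT libraries.

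**Figure D3:**
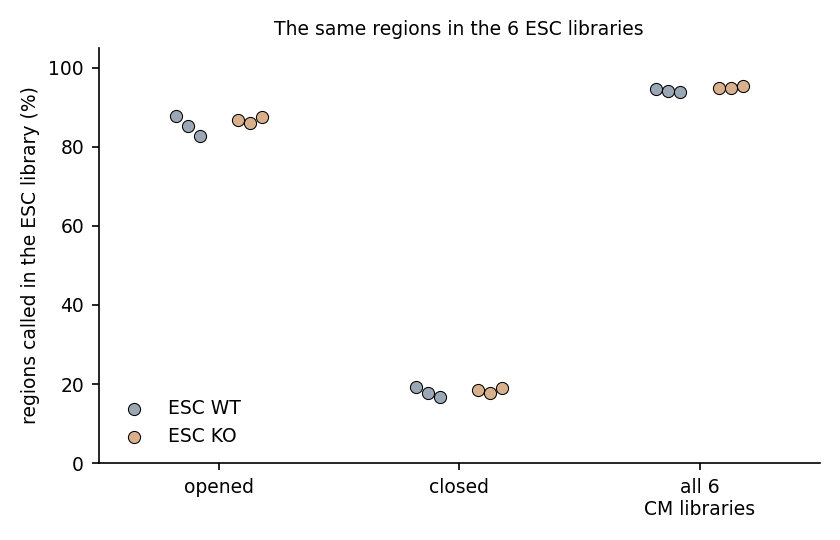
Share of opened regions, closed regions and regions called in all 6 cardiomyocyte libraries (%) that each ESC library called (3 ESC WT and 3 ESC KO points per set). Opened regions sit between 82.6% and 87.9% and closed regions between 16.8% and 19.3%, against 93.8% to 95.3% for regions called in all 6.

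Both sets lay mainly away from promoters and were of modest height. A promoter was touched by 67 opened regions (4.60%) and 267 closed regions (3.70%), against 31.8% of the regions called in all 6 libraries and 14.2% of those called in at least 1. Gene bodies away from promoters held 42.7% of opened and 47.9% of closed regions. A further 26.4% and 24.3% lay 10 to 100 kb from the nearest protein-coding gene, and 13.6% and 12.96% lay over 100 kb away. Median width was 426 bp for opened, 352 bp for closed and 707 bp for regions called in all 6 libraries, with 1.65%, 0.567% and 22.8% of them over 1000 bp. Over regions called in at least 1 cardiomyocyte library the median was 419 bp, and 8.62% were over 1000 bp. Union width grows with the number of libraries that call a region, so these widths are not independent of the rule. The authors' fold enrichment over local background had a median of 4.16 to 4.65 for opened regions in the 3 CM KO libraries and 4.19 to 4.37 for closed regions in the 3 CM WT libraries, at the median percentile 33.5 to 40.7 and 37.5 to 47.0 of each library's intervals. Most members were thus weaker than the typical peak of their own library.

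The closed regions that ranked highest by fold in all 3 CM WT libraries lay in or near genes of varied function. The first, chr14:101892001-101892539 in the body of Lmo7, a LIM-domain protein of cell junctions, had folds of 10.0, 11.3 and 11.7 in CM WT replicates 1 to 3 and no interval in CM KO. It was followed by a region 29211 bp from Enpp1 and by chr10:97516504-97516805 within Dcn, the gene of the matrix proteoglycan decorin, with folds of 11.3, 10.8 and 9.07. The other 7 lay in Gbf1 and Lurap1l or nearest to Cd83, Ets1, Slc25a13, Dipk2a and Lpin2. None of these 10 was called in any ESC library. The highest opened region, chr1:12372717-12373358, lay 318839 bp from Sulf1 with folds of 9.31, 10.5 and 9.56 in CM KO replicates 1 to 3. The other 9 lay in the bodies of Zdhhc2, Gnaq, Rgs7, Smg1 and Cdh13 or nearest to Tigd2, Tm4sf1, Trpd52l3 and Cdh8. In contrast to the closed regions, 9 of these 10 were called in all 6 ESC libraries and the region in Zdhhc2 in 5.

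The genes with the most closed regions were long. Enox1 (566 kb) held 8 within its body or 10 kb of it, and Trappc9, the axon guidance ligand gene Slit3, the RhoGEF gene Kalrn, the receptor phosphatase gene Ptprg, Camta1 and the splicing factor gene Rbfox1 held 7 each. St6gal1, Man1c1 and the WNT5A receptor gene Ror2 held 6 each in genes of 136 to 177 kb. Enox1 and Ptprg lie on chromosome 14, described below. No gene held more than 4 opened regions. Glis3, a zinc finger gene of 421 kb, held 4, as did 3 overlapping gene models of a protocadherin cluster, and Tpd52, Sptlc2, Ppp2r2c, Gm973, Eps8 and Nhsl1 held 3 each. Some of the genes named here held regions of the other set as well. Kalrn held 1 opened region, each protocadherin model 1 closed region, and Eps8 and Nhsl1 2 closed regions each.

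Of 16 gene lists, those of fibroblast, endoderm, cardiac transcription factor and sarcomere genes had the largest shares of genes with a closed region. Over all 21883 protein-coding genes, 17.3% had at least 1 closed region in the gene or within 10 kb and 4.54% had an opened one. The fibroblast and matrix list had a closed region at 13 of 23 genes (56.5%), the endoderm list at 14 of 26 (53.8%), cardiac transcription factors at 10 of 25, sarcomere genes at 10 of 25, smooth muscle genes at 5 of 13 (38.5%), calcium and conduction genes at 8 of 23 (34.8%) and endothelial genes at 6 of 21 (28.6%). Chromatin regulators had 10 of 36 (27.8%), WNT and BMP genes 6 of 26 (23.1%) and imprinted genes 3 of 16 (18.75%), above all genes by this count but below them when counted by region, as given next. Shares below that of all genes were seen for cell cycle genes (4 of 30), the m6A machinery (2 of 20), blood genes (2 of 20), pluripotency genes (3 of 33), neural genes (1 of 20) and Hox genes (0 of 23). Opened regions lay at 4 of 33 pluripotency genes, 3 of 20 neural genes and 6 of 36 chromatin regulators. These shares are not corrected for gene length, which sets how many regions a gene can hold. Counted by region, 4.64% of the called regions at all protein-coding genes were closed. The share was 13.01% at fibroblast genes, 9.50% at endoderm, 8.56% at sarcomere, 8.00% at calcium and conduction, 7.21% at smooth muscle, 6.67% at cardiac transcription factor and 6.51% at endothelial genes. It was 4.68% at cell cycle and 4.20% at blood genes, and lower at WNT and BMP genes (3.28%), chromatin regulators (2.96%), the m6A machinery (2.47%), imprinted genes (2.46%), pluripotency genes (1.21%) and neural genes (0.758%).

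**Figure D4:**
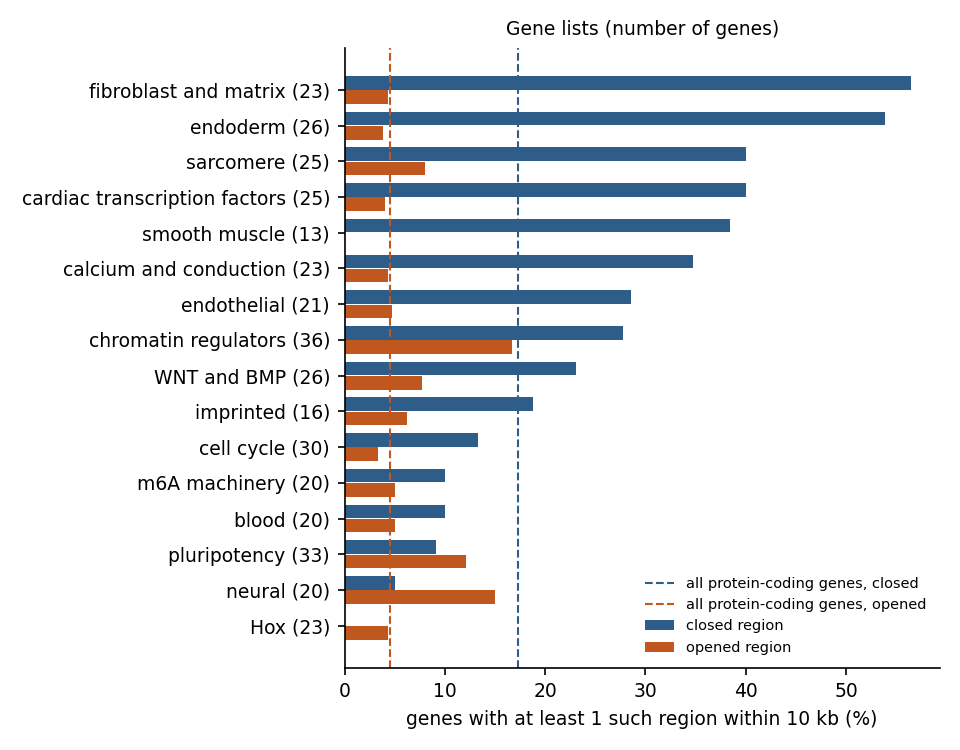
Share of genes (%) with at least 1 closed or opened region in the gene or within 10 kb, for 16 gene lists (number of genes in brackets), with dashed lines at the shares of all protein-coding genes, 17.3% closed and 4.54% opened. The fibroblast and endoderm lists stand at 56.5% and 53.8% closed.

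A gene is called closed at its promoter here when a closed region touches its window of ± 1 kb, and another region in that window may still be called. Among heart regulators, Hand2 held 3 closed regions and Gata4 and Mef2c 2 each. The region at the Hand2 promoter printed above had CM WT folds of 3.75, 3.13 and 4.77, and the other Hand2 regions lay 2799 and 7253 bp from the gene. Other regions in the Hand2 and Mef2c windows were called in 3 of 3 CM KO libraries, whereas the Gata4 window had no call in CM KO. A region at one end of Gata4, the zinc finger factor that binds the GATA motif, had folds of 3.24, 4.57 and 4.03. At the Mef2c start, the region had folds of 5.18, 4.58 and 5.61, and Mef2c was the only cardiac factor of the list with an opened region as well. Of the sarcomere, the Actc1 promoter (folds 3.09, 4.50 and 4.77), the Tnnt2 promoter (3.16, 3.398 and 3.58) and a start of Ldb3, a Z-disc protein gene with 3 closed regions, were closed, and none of these 3 windows had any call in CM KO. Actc1 was called in no ESC library and Tnnt2 in 1 of 6. Opened regions stood in the same list at Myl2, the ventricular regulatory light chain gene (folds 3.401, 3.02 and 3.84 in CM KO), and 2755 bp from Lmod2, a thin filament gene that also held 1 closed region (7.37, 3.49 and 4.04). Ion handling genes held their closed regions mainly inside the gene. The potassium channel gene Kcnq1 held 6 closed regions, and the calcium channel genes Cacna1c and Cacna1d held 4 each, in genes of 320 to 610 kb, with only Cacna1d closed at a promoter, in a window still called in 3 of 3 CM KO libraries. Cacnb2, a calcium channel subunit gene, held an opened region in its body (folds 5.04, 5.82 and 5.51 in CM KO). Gata4, Ldb3 and Cacna1d, which count in the list shares above, lie on chromosome 14. Closed regions outnumbered opened ones there by 14.5 to 1, as described below.

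Stromal and endoderm genes held closed regions at their promoters as well. Col3a1 was closed at its start (folds 7.13, 3.68 and 3.56), Col1a1, the main fibrillar collagen chain, at a gene end (3.36, 2.64 and 2.85) and Wt1, an epicardial factor, near a gene end (5.51, 6.76 and 4.21), none of these regions called in an ESC library. The Col3a1 window had no call left in CM KO, but the Col1a1 and Wt1 windows had another region called in all 3 CM KO libraries. Fn1, the fibronectin gene, held the most closed regions of its list, 3. In the endoderm list, Ttr (transthyretin), Spink1 and Vil1 (villin) were closed at a promoter or gene end, and the basement membrane collagen genes Col4a1 and Col4a2 held 2 and 3 closed regions. Col4a2 held an opened region as well (folds 4.11, 2.98 and 2.64 in CM KO), and so did Col5a2 in the fibroblast list (4.27, 4.27 and 5.51). Mylk, the myosin light chain kinase gene, was the only smooth muscle gene closed at a start and held 3 closed regions. Cdh5 (VE-cadherin) held 4 in the endothelial list, Ets1 held 3 closed regions and 1 opened, and Esam was closed near a gene end in a window that CM KO still called. Csf1r, the macrophage growth factor receptor gene, was the only closed promoter of the blood list, and Runx1 held 3 closed regions.

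At promoters as a whole, 274 protein-coding genes were closed (1.25%) and 68 opened (0.311%) in this sense. No call at all was left in the window in CM KO for 130 of the 274 (counted after seeing the data), while 128 of them (46.7%) had a region called in every CM KO library. Of the 68 opened, 35 had no call in the window in CM WT and 28 (41.2%) had one in every CM WT library. Among the closed promoters, genes of macrophages and of the interferon response were seen often. After these had been seen, a list of 30 myeloid genes was written down, so its counts are a description of that choice. It had a closed region at 18 genes and a closed promoter at 15, among them the chemokine genes Ccl2, Ccl3 and Ccl4, C1qb, Tyrobp, Fcer1g, Laptm5 and Aif1, and no opened region. Of its called regions, 14.6% were closed. The windows of the 8 genes named had no call in CM KO. Ccl3 and Ccl4 shared 1 region of 671 bp (folds 9.16, 8.66 and 7.45). A list of interferon genes written at the same stage had 6 of 19 genes with a closed region, with closed promoters at Ifit1, Ifi204, Ifi27, Ifitm3 and Irgm2. Opened promoters had another make-up. They included the pluripotency gene Dppa3 (folds 4.04, 4.26 and 3.79 in CM KO), Elavl3 and the imprinted gene Sgce, and, named after their values were seen, germline and meiosis genes such as Tex11, Tex13d, Rnf212, Rec114, Dmrtb1, Adad2 and Ct55. Of these germline genes, Tex11, Tex13d and Ct55 lie on chromosome X, described below. Their opened regions were called in 3 ESC WT and 3 ESC KO libraries, except that of Rec114, called in 1 and 2.

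Chromatin-associated RNA of the same cultures was read beside these promoters. It had 1 library per group, so its differences have no replicate check and no test. On the log2(RPKM + 1) scale, which understates changes of low genes, the median CM KO minus CM WT difference was 0.12 over the 4364 genes that reached 1 RPKM in one or both CM libraries, and values should be read against that shift. Among genes with an opened or closed promoter, 55 passed this filter, and the 5 lowest were Col1a1 (4.34 RPKM in CM KO against 15.5 in CM WT, -1.63), Col3a1 (0.734 against 3.89, -1.50), Actc1 (0.0962 against 1.90, -1.40), Ppbp, a platelet chemokine gene (listed at 0 against 1.41) and Ccl3 (0.0443 against 1.03). All 5 had closed promoters, Col1a1 with another region in its window called in CM KO, and 4 of the 5 reached 1 RPKM in CM WT only, so the filter itself favoured a lower CM KO value for them. The 5 highest were Sgce (2.47 against 0.875), whose promoter was opened, and Eif5a, Krcc1, Adprh and Ifitm3, whose promoters were closed. The windows of Eif5a, Krcc1 and Adprh, and of Sgce on the opened side, held another region that all 3 libraries of the other genotype called, and the Ifitm3 window had no call in CM KO. The median over the 48 genes with a closed promoter was -0.03, and 4 of them were at least 2-fold lower (background 0.596% of genes) and 0 at least 2-fold higher (0.183%). The 7 genes with an opened promoter had a median of -0.02.

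Over all filtered genes, RNA was lower where more closed regions lay nearby. The median log2 difference was 0.14 for 3394 genes with no opened or closed region within 10 kb, 0.08 for 573 genes with 1 closed region, -0.03 for 107 genes with 2 and -0.10 for 58 genes with 3 or more. CM KO was the lower library for 22.9%, 32.5%, 57.9% and 74.1% of these genes. Genes with only opened regions (145) had a median of 0.14. Genes that hold several regions are long, and gene length was not matched in these groups. Chromosome was not matched either, and both the closed share and the RNA difference varied by chromosome. The median RNA difference was -0.04 on chromosome 14, with 8.56% of called regions closed, and 0.20 on chromosome X, with 3.82% closed. Closed share and RNA did not move together on every chromosome. The lowest RNA difference was on chromosome 17 (-0.07, with 5.97% closed), and chromosome 13 stood at 0.12 with 6.50% closed. The part of gene length and of chromosome in the trend was not tested.

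Markers of several cell types moved with genotype in the same RNA libraries. The 9 cardiomyocyte markers (Tnnt2, Myh6, Myh7, Actc1, Ttn, Actn2, Ryr2, Nkx2-5 and Myl7) summed to 8.10 RPKM in CM WT and 0.827 in CM KO, with none above 2.18 in CM WT or 0.191 in CM KO. Their promoters were called in 3 of 3 libraries for 6 of 9 in CM WT and 3 of 9 in CM KO. In ESC WT the same 9 summed to 1.05. Actn2, which encodes the Z-disc protein alpha-actinin-2, stood at 0.191 in CM KO and 0.190 in CM WT, and no marker of the 9 was listed at 0 in either. In CM KO, 5 fibroblast markers summed to 7.33 RPKM (25.05 in CM WT), 5 endoderm markers to 6.35 (15.7), 3 smooth muscle markers to 1.83 (4.04), 5 blood markers to 45.1 (40.8), 4 endothelial markers to 3.88 (2.51) and 5 pluripotency markers to 8.79 (4.49). Blood markers went opposite ways: Hbb-y was at 5.94 in CM KO against 18.2 in CM WT, Hbb-bh1 at 28.0 against 12.5, Hba-x at 11.1 against 9.94 and Ptprc at 0.00802 against 0.131. Of 4 neural markers, Sox1 and Tubb3 were listed at 0 in both. In bulk samples fewer cells of a type and less open chromatin or RNA per cell cannot be told apart, and the part of these cell types in the opened and closed regions was not tested.

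The balance of opened and closed regions also differed by chromosome. Chromosome 14, which carries Mettl3 at chr14:52294841-52308741, had 405 closed and 28 opened regions, 14.5 to 1, and chromosome X had 94 and 66, 1.42 to 1. Of the regions called on chromosome 14, 8.56% were closed and 0.592% opened, and on chromosome X 3.82% and 2.68%, against 5.65% and 1.14% of all. Chromosome 14 held 3.24% ± 0.0275 of the intervals in CM KO and 3.86% ± 0.0284 in CM WT (SD, n = 3), with no overlap. The ESC libraries showed the same gap, at 3.19% in ESC KO and 3.83% in ESC WT (exact permutation within cell types, p = 0.005, the smallest possible; 0.012 after Benjamini-Hochberg adjustment over 21 chromosomes). The ratio of interval numbers, KO to WT, was 0.693 in cardiomyocyte cultures and 0.848 in ESCs, and all 13 bins of 10 Mb along chromosome 14 lay below 1 in both. Chromosome X went the other way, with 2.35% of intervals in CM KO and 1.94% in CM WT, and 2.44% in ESC KO and 2.19% in ESC WT (same p). Such shifts were not confined to these chromosomes, since CM KO and CM WT shares did not overlap on 18 of 21 (85.7%), and p reached 0.005 for 1, 6, 8, 10, 11, 16 and 17 as well. In RNA, chromosome 14 genes had a median log2 KO minus WT difference of -0.04 in cardiomyocyte cultures and -0.32 in ESCs, at rank 2 and rank 1 from the lowest of the chromosomes, against 0.12 over all genes of the cultures and -0.10 over all genes of ESCs. Without chromosomes 14 and X, 1364 regions were opened and 6726 closed.

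**Figure D5:**
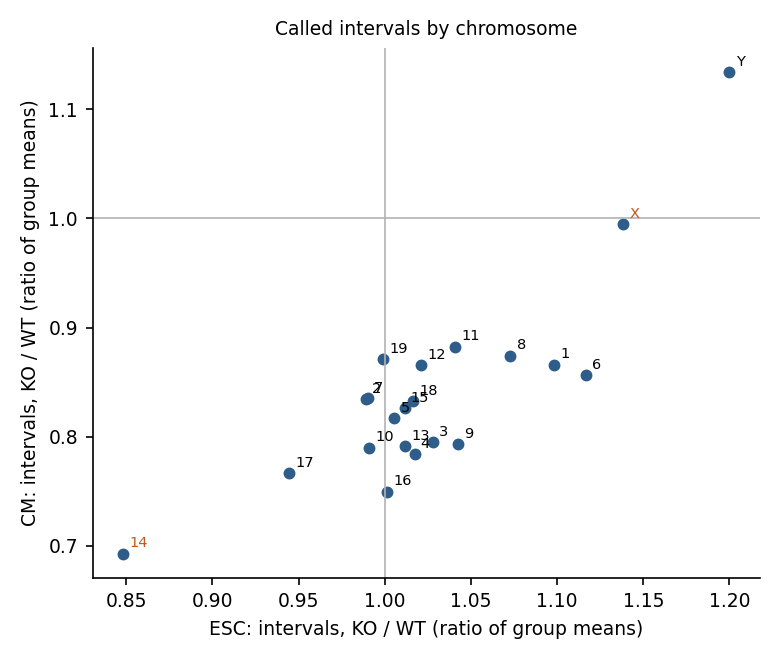
Ratio of the mean number of called intervals in KO to that in WT libraries for each chromosome, in ESCs (horizontal axis) and cardiomyocyte cultures (vertical axis), n = 3 libraries per group. Chromosome 14 is lowest on both axes (0.848 and 0.693), and chromosome X stands at 1.14 and 0.995.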

How the data were processed

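ATAC-seq was made from 100000 cells per library and sequenced single end with 75 bp reads, per the labels' protocols. Per the submitters' processing notes, the tools were MACS2, Bowtie, cutadapt, Picard and HISAT2 and the build mm10, without versions or parameters. Peaks were deposited per library in the narrowPeak layout, and hold the authors' score, fold enrichment (a ratio), −log10 p-value and −log10 q-value for each summit. The lowest −log10 q was close to 1.30 in every list. The chromatin RNA files hold RPKM values that the authors deposited, 1 library per group.

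Rows sharing an interval were collapsed, and intervals of all 12 lists sharing at least 1 bp were merged. Promoters were RefSeq starts (GRCm38.p6) ± 1 kb. For 4392 of 21883 protein-coding genes without a start, either gene end ± 1 kb was used. Groups were compared by two-sided exact permutation tests (Python 3.11.15, numpy 2.4.6, pandas 2.3.3, scipy 1.17.1), tested on simulated data. No read counts per peak were used, so opening and closing are presence or absence of a call. Depth is known only as a background pileup. It ranged from 1.58 to 2.53 reads per base, and a weak peak is more easily called at a higher pileup. Rescaling multiplied pileups to the lowest library and kept summits with a −log10 p of at least 3.26. The pseudocount on RPKM was 1 and the filter 1 RPKM in either library.

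The members and gene lists were chosen with earlier results of these data known. Regions named are the 10 opened and 10 closed with the highest lowest-of-3 fold percentile, genes those with the most regions, list members with a changed promoter or most regions, and the 5 highest and 5 lowest RNA ratios. Of 375 listed genes, 371 were found. The m6A lists were not used here.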

Additional observations from a re-analysis of the deposited data

How the results depend on the processing

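Of 131 values under alternatives, 101 were classed as unchanged, but the class was wide and does not measure closeness. It held 10279 closed regions without CM WT replicate 1 (7225 reported). Also in it was a difference of 0.015 points in the share of ESC WT regions without that library (0.57 reported). With equal numbers of intervals, 2637 regions were opened and 4049 closed, and with at least 2 of 3 libraries against 0 the counts were 4509 and 15658. Without 1 library the counts ran from 1950 to 2796 opened and from 8605 to 11224 closed, since fewer libraries have to match. The opened count passed 1.5 times the reported one without CM KO replicate 1 (2796), CM KO replicate 3 (2559) or CM WT replicate 2 (2210), and the closed count without CM WT replicate 3 (11224). With equal numbers of intervals the KO minus WT difference was -2.54 Mb in covered bases (-5.99 Mb reported), -34.3 bp in median width (1.33 bp reported), 0.95 percentage points in promoter share (3.31 reported), 6.95 points in the share of ESC WT regions (0.57 reported), -8061 in regions called in no ESC library (-13870 reported) and -0.66 points in the chromosome 14 share (-0.62 reported). The ESC lists were cut as well, so the ESC WT regions and the regions called in no ESC library were other sets than in the reported values. Rescaling turned the width difference to -5.33 bp. Leaving out 1 library gave 0.33 to 3.00 bp for width and -0.999 to 1.56 points for the share of ESC WT regions, the negative value without CM KO replicate 2. The median RNA difference of genes with an opened promoter was -0.019, -0.033 with a pseudocount of 0.1 and 0.010 without the filter, and with a closed promoter -0.031, -0.050 and -0.036. For these reversals the cause was not tested.

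With a promoter of ± 2 kb, 113 genes were opened and 421 closed at a promoter, and 35 and 130 where the window had to lack any call in the other genotype. The labels do not say whether replicate numbers pair the libraries. Deviations of same-numbered CM KO and CM WT libraries correlated at -0.023 to -0.0035, and those of other numbers at -0.012 to 0.021. Correlations over 3 libraries per group cannot show whether the libraries were prepared in pairs. The replicate block (exact sign-flip permutation over 3 pairs, smallest p 0.25) gave an exact p = 0.25 for the interval number (difference -15614). Alternatives on chromosomes, on regions called in no ESC library, on rescaling of measures other than interval number, on known starts, on windows without a call, on motifs by overlap and on groups by closed regions were chosen after seeing the data. Depth enters only through the pileup, and a region near the calling threshold can be missed in a shallower library.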
